A study of Homo sapiens with 11 samples.

Results

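The levels of 10 enzyme genes of serine, asparagine, cysteine and proline synthesis were followed across the 4 groups of an RNA-seq experiment in HEK293T cells. The genes were taken by symbol: ASNS, PHGDH, PSAT1, PSPH, SHMT2, MTHFD2, ALDH1L2, CTH, CBS and PYCR1, 10 of the 58735 genes in the deposited count table. HEK293T is a human embryonic kidney line. Polyadenylated RNA was sequenced from 3 libraries of cells labelled control siRNA, 3 of cells given siRNA against NAE1 at 50 nM (siNAE1), 3 with siRNA against UBE2M at 70 nM (siUBE2M) and 2 with siRNA against URM1 at 60 nM (siURM1). The siRNAs were delivered with RNAiMAX and the cells were taken 48 h later. The study asked which genes depend on URM1, a ubiquitin-like protein, and on NAE1 and UBE2M, which it examines as activating and conjugating enzymes for URM1 and which are best known for NEDD8. The siRNA amount and, as given below, the depth of knockdown differed between knockdowns. Neither can be told apart from the target when knockdowns are compared with each other. The study's supplement lists a single siRNA sequence for each target. An effect of that sequence on other genes cannot be told apart from loss of the target. The study's methods name a non-targeting siRNA as negative control. Its material also lists the control libraries under a name that mentions no siRNA, and it is not certain that these cells received one. The labels number biological replicates without saying that they were separate cultures, so p-values measure the spread between these libraries.

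The pathways meet in a few steps. PHGDH, PSAT1 and PSPH turn a glycolytic intermediate into serine. SHMT2, MTHFD2 and ALDH1L2 pass the carbon of serine through the mitochondrial folate cycle. CBS and CTH carry sulfur from homocysteine to cysteine, ASNS makes asparagine from aspartate, and PYCR1 completes proline. Many of these genes are known targets of ATF4, a transcription factor whose own translation increases when cells are starved of amino acids or under stress.

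Library totals ranged from 11733163 to 16321391 counts, and all 10 genes passed the filter on low counts that left 18368 genes in the test. The siRNA targets fell in their own knockdowns. NAE1 was at 38.9% of the control mean in siNAE1 cells, UBE2M at 6.34% in siUBE2M cells and URM1 at 28.6% in siURM1 cells. Of 7 markers of HEK293T cells all were at or over 1 CPM (the normalised count, scaled to the library total) in every group, and their summed level was higher in the knockdowns, from 366 to 389 CPM in control cells against 494 to 668 CPM in the knockdown libraries. Of 8 markers of other cell types 1, COL1A1, reached 1 CPM, and CD3E was at 0 throughout. Their summed level was 19.8 to 23.4 CPM in control, 17.1 to 21.4 in siNAE1, 25.3 to 30.4 in siUBE2M, above control without overlap, and 21.9 to 23.7 in siURM1. The part of these marker levels in the results was not tested. In bulk RNA, fewer cells of a kind and less RNA per cell cannot be told apart.

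Summed over the 10 genes, the level was lower in all 3 knockdowns. It was 3598 ± 69.9 CPM in control cells (SD, n = 3), 2044 ± 59.0 in siNAE1 cells (n = 3), 2700 ± 99.3 in siUBE2M cells (n = 3) and 2652 ± 8.25 in siURM1 cells (n = 2), or 56.8%, 75.0% and 73.7% of control. PHGDH, PSAT1, MTHFD2, SHMT2 and PYCR1 make up most of the sum, which is a description without a test. A gene was called when the Benjamini-Hochberg adjusted p of edgeR's quasi-likelihood test was under 0.05 and its log2 fold change was at least 1 in size.

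In siNAE1 cells, 5 of the 10 genes were called lower (ASNS, PSAT1, PSPH, ALDH1L2 and CTH), against 8.61% of all genes tested. In siUBE2M cells 2 were called lower (ALDH1L2 and CTH), against 3.89%, and in siURM1 cells 1 (CTH), against 4.73%. By edgeR none was called higher in any knockdown against control. With the adjusted p alone and no fold threshold, 8 were lower in siNAE1 cells (27.1% of all genes), 6 in siUBE2M cells (22.6%) and 9 in siURM1 cells (20.8%), where PHGDH and MTHFD2 depended on single libraries as given with each gene. ASNS in siUBE2M cells was the 1 higher gene, against 22.7% of all genes, and no further member was higher at an unadjusted p under 0.05. The 8, 6 and 9 genes were also those for which every knockdown library lay under every control library, a separation found in 29.7%, 26.9% and 31.1% of all genes. The median log2 fold change of the 10 genes was -1.04, -0.41 and -0.58, while that of all genes tested was within 0.03 of 0. CTH alone was called lower in all 3 knockdowns, as were 1.39% of all genes. PSAT1, PSPH, MTHFD2, ALDH1L2, CTH and PYCR1 were lower in all 3 by the adjusted p, against 9.62% of all genes, MTHFD2 not in every fit that left out a library. The 3 comparisons share the control libraries. The 10 genes were chosen with earlier results of these data known. Their counts and medians beside those of all genes are therefore a description and not a test of the list.

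**Figure D1:**
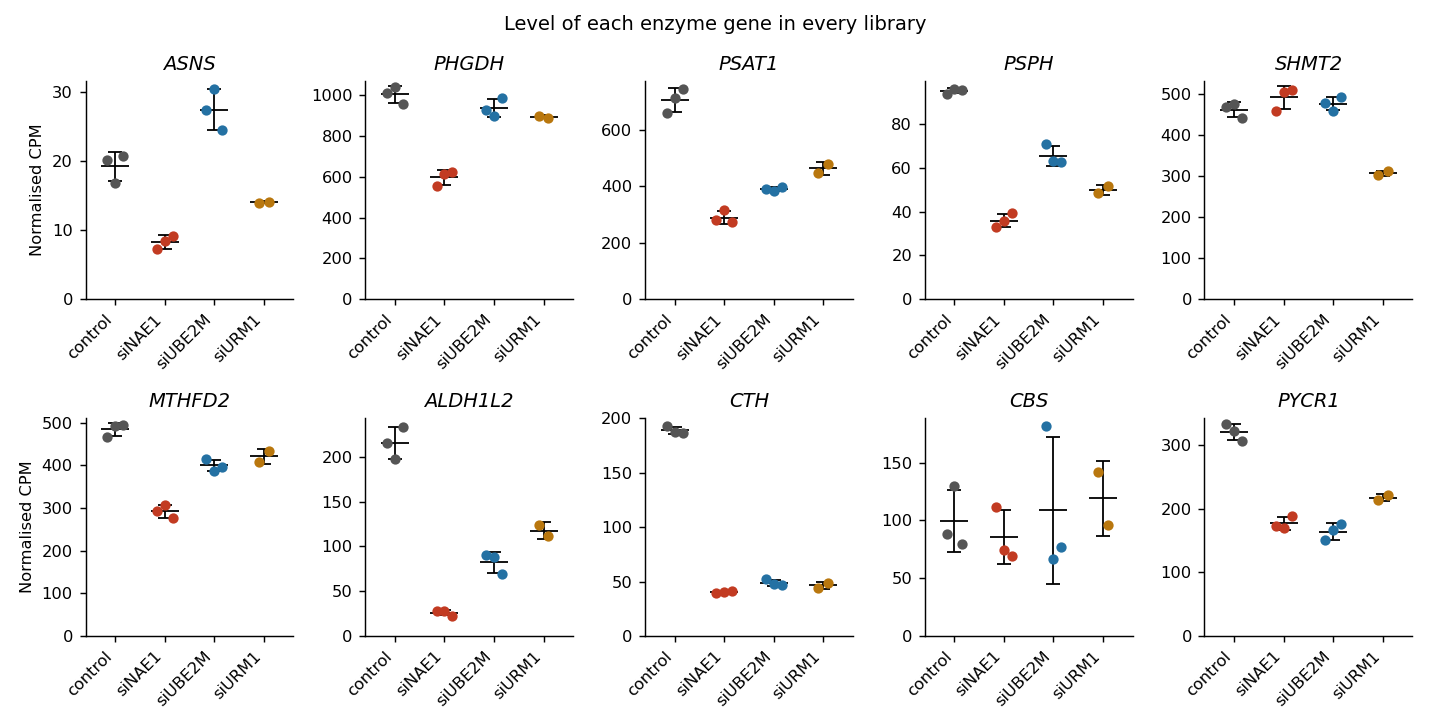
Normalised CPM of each of the 10 genes (linear axes from 0) in every library, by group. Points are libraries, bars the group mean and SD (n = 3, 3, 3 and 2). The CTH libraries of the knockdowns lie between 39.3 and 52.1 CPM, far under the controls, ASNS lies above control in siUBE2M cells and below it in the other knockdowns, and the CBS groups overlap.

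**Figure D2:**
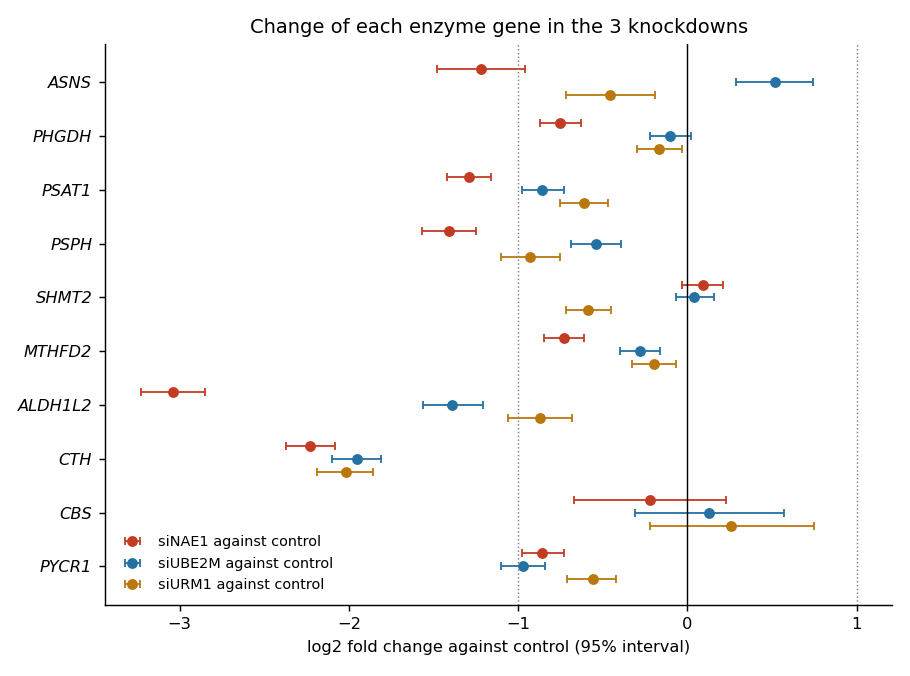
Log2 fold change against control of each gene in the 3 knockdowns, with its 95% interval (unadjusted). Dotted lines mark a log2 fold change of 1 in either direction. CTH is near -2 in all 3 knockdowns, ALDH1L2 reaches -3.04 in siNAE1 cells, and every CBS interval includes 0.

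Promoter sequence from RefSeq was available for ASNS, PHGDH, PSAT1, MTHFD2, CTH and CBS, in 9 windows of 300 bases (250 before a transcript start and 50 after it, build GRCh38.p14). ATF4 binds C/EBP-ATF response elements, whose core was searched as TGATGNAA on both strands. It was found in 1 of the 9 windows, which is 1 of the 2 windows of ASNS, where it begins 68 bases before the start at chr7:97872469-97872476 on the minus strand. Of all 35116 RefSeq windows of this length, 3.62% hold it. The ASNS site and upstream sequence of CTH and PSAT1, 2 of the genes that fell in every knockdown, chosen after their values were seen, are shown for comparison. Capitals mark the core in ASNS (chr7:97872458-97872487, minus strand) and CCAAT boxes in CTH (chr1:70411018-70411217, plus strand) and PSAT1 (chr9:78296875-78297124, plus strand).
ASNS: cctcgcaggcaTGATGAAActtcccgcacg
CTH: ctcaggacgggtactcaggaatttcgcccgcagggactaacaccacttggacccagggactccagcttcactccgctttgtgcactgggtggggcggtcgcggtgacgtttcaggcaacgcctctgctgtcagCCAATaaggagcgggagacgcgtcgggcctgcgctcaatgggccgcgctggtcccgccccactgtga
PSAT1: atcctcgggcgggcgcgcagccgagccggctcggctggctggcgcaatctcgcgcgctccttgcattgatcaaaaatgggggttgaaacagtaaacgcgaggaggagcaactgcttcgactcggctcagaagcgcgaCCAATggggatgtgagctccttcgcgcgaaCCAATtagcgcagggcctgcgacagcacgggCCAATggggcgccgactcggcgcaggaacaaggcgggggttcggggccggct
CCAAT, the box bound by NF-Y, was chosen after the sequences were read and searched on both strands. It occurs 1 time in the CTH stretch and 3 times in that of PSAT1, in 6 of the 9 windows and in 34.6% of all windows. A match is a run of letters and not a measured binding site.

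The first of the serine enzymes, PHGDH (phosphoglycerate dehydrogenase; ENSG00000092621, chr1:119648411-119744226, plus strand), fell in siNAE1 cells. Its level was 1012, 1042 and 960 CPM in the control libraries, 557, 615 and 623 in siNAE1, 926, 900 and 985 in siUBE2M, and 901 and 890 in siURM1. The siNAE1 libraries stood apart from all others, while siUBE2M overlapped control. The log2 fold change was -0.75 ± 0.06 (SE, adjusted p = 1.9e-12) in siNAE1 cells. The siURM1 cells showed -0.17 ± 0.07 (adjusted p = 0.039). That value missed 0.05 in limma (adjusted p = 0.060 to 0.064) and when control replicate 1 or 2, siUBE2M replicate 1 or 2, or either siURM1 replicate was left out (0.060 to 0.18). In siUBE2M cells the difference was -0.10 with a 95% interval from -0.22 to 0.02 (adjusted p = 0.16).

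PSAT1 (phosphoserine aminotransferase; ENSG00000135069, chr9:78297143-78330093, plus strand) fell in all 3 knockdowns. It was at 661, 715 and 745 CPM in control, 280, 315 and 272 in siNAE1, 392, 382 and 397 in siUBE2M, and 448 and 480 in siURM1. No 2 groups overlapped, and siNAE1 was lowest. Against control the log2 fold changes were -1.29 ± 0.06, -0.86 ± 0.06 and -0.61 ± 0.07 in siNAE1, siUBE2M and siURM1 cells (adjusted p = 1.8e-17, 6.6e-13 and 1.5e-08), and only the first passed the fold threshold.

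PSPH, phosphoserine phosphatase (ENSG00000146733, chr7:56011051-56051604, minus strand), which releases serine, fell in all 3 knockdowns in another order. The control libraries held 93.8, 96.1 and 95.8 CPM, siNAE1 33.0, 35.5 and 39.3, siUBE2M 70.9, 63.3 and 62.5, and siURM1 48.4 and 51.7. Here siURM1 lay below siUBE2M without overlap, where PSAT1 had shown the reverse. The log2 fold changes were -1.41 ± 0.08, -0.54 ± 0.07 and -0.93 ± 0.09 (adjusted p = 6.3e-16, 4.3e-07 and 2.2e-10). Its pseudogene PSPHP1 is listed at 0 counts in every library.

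The folate enzymes diverged. SHMT2, the mitochondrial serine hydroxymethyltransferase that splits serine into glycine and a one-carbon unit (ENSG00000182199, chr12:57229327-57234935, plus strand), was at 468, 476 and 440 CPM in control, 458, 505 and 510 in siNAE1, 478, 458 and 491 in siUBE2M, and 302 and 311 in siURM1. The siURM1 libraries lay below all others. The log2 fold change was -0.59 ± 0.07 in siURM1 cells (adjusted p = 1.2e-08). In siNAE1 cells it was 0.09 (95% interval -0.03 to 0.21, adjusted p = 0.20) and in siUBE2M cells 0.04 (-0.07 to 0.16, adjusted p = 0.57), neither of which passed.

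MTHFD2, the mitochondrial methylenetetrahydrofolate dehydrogenase (ENSG00000065911, chr2:74198562-74217565, plus strand), was lower in all 3 knockdowns but under the fold threshold in each. It was at 466, 493 and 495 CPM in control, 293, 307 and 277 in siNAE1, 415, 388 and 397 in siUBE2M, and 409 and 434 in siURM1. The log2 fold changes were -0.73 ± 0.06, -0.28 ± 0.06 and -0.20 ± 0.06 (adjusted p = 2.9e-12, 1.7e-04 and 0.011). The siURM1 value missed 0.05 without control replicate 2 (adjusted p = 0.056), control replicate 3 (0.061) or siURM1 replicate 1 (0.16). The knockdown libraries all lay under the controls, and siUBE2M and siURM1 overlapped each other.

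ALDH1L2, the mitochondrial formyltetrahydrofolate dehydrogenase that returns the one-carbon unit as carbon dioxide with NADPH (ENSG00000136010, chr12:105019784-105084577, minus strand), showed the largest decrease of the 10 genes in siNAE1 cells. The control libraries held 215, 198 and 233 CPM, siNAE1 28.3, 27.3 and 22.6, siUBE2M 90.1, 87.8 and 69.0, and siURM1 124 and 111. The 4 groups were ordered with no overlap, and the siNAE1 mean was 12.1% of control, against 38.2% in siUBE2M and 54.7% in siURM1. Its log2 fold changes were -3.04 ± 0.10, -1.39 ± 0.08 and -0.87 ± 0.09 (adjusted p = 2e-22, 1.4e-14 and 5e-09). In GENCODE v44 other genes on the opposite strand cover 2.9% of the exon bases of ALDH1L2, 8.4% of SHMT2, 14.1% of MTHFD2 and 15.6% of PYCR1, and the strand setting of the counting is not given in the sources used here.

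CTH, cystathionine gamma-lyase (ENSG00000116761, chr1:70411218-70439851, plus strand), which releases cysteine, fell by a similar amount in every knockdown. It was at 193, 188 and 187 CPM in control, 39.3, 40.7 and 41.4 in siNAE1, 52.1, 48.1 and 46.5 in siUBE2M, and 44.2 and 49.0 in siURM1. The knockdown means were 21.4%, 25.8% and 24.6% of control. On the log2 scale the fold changes were -2.23 ± 0.07, -1.95 ± 0.07 and -2.02 ± 0.08 (adjusted p = 4.9e-22, 2.4e-20 and 5.2e-19). Between knockdowns siNAE1 was lower than siUBE2M by a small amount (log2 difference -0.27, 95% interval -0.43 to -0.12, adjusted p = 0.0033). The differences of siNAE1 and siUBE2M from siURM1 were -0.20 (-0.37 to -0.04, unadjusted) and 0.07 (-0.10 to 0.24). The first lay at the threshold (adjusted p = 0.050). It passed with RLE scaling (0.043), DESeq2 (0.045), at least 10 counts in every library (0.036) and limma on log2(FPKM + 1) (0.021). It missed with no filter (0.10), 2 groups per fit (0.078) or a replicate block (0.087). Over the fits that left out a library this difference ran from -0.28 to -0.13. The second did not pass.

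CBS, cystathionine beta-synthase (ENSG00000160200, chr21:43053191-43076943, minus strand), stands a step before CTH and gave no call. It was at 88.5, 130 and 79.6 CPM in control, 112, 74.6 and 69.5 in siNAE1, 182, 66.9 and 77.0 in siUBE2M, and 142 and 96.1 in siURM1. All groups overlapped. The log2 fold changes were -0.22 (95% interval -0.67 to 0.23), 0.13 (-0.31 to 0.57) and 0.26 (-0.22 to 0.75), with adjusted p = 0.41, 0.67 and 0.40. All 3 values changed sign with the library left out. They ran from -0.46 (without siNAE1 replicate 1) to 0.02 (without control replicate 2) in siNAE1 cells, from -0.46 (without siUBE2M replicate 1, adjusted p = 0.021) to 0.39 (without siUBE2M replicate 2) in siUBE2M cells, and from -0.05 (without siURM1 replicate 1) to 0.52 (without siURM1 replicate 2 or control replicate 2) in siURM1 cells. Without the filter on low counts, the values in siNAE1 and siURM1 cells passed by the adjusted p (-0.21 and 0.27, adjusted p = 0.013 and 0.0045).

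The spread of CBS was unlike that of the other members. Its coefficient of variation between replicates was 27.1%, 26.9%, 58.8% and 27.5% in control, siNAE1, siUBE2M and siURM1 cells, where the median over the 10468 genes that averaged 10 CPM or more was 4.98% to 6.73%, and CBS lay at or above the 99.6th percentile in every group. The reference holds a near-identical copy on the same chromosome, CBSL, which shares 31.6% of the 100-base stretches of CBS transcripts and had 296 to 638 counts a library. CBS held from 58.8% to 89.3% of the counts of the pair. With the pair summed, the coefficients were 20.6%, 15.0%, 45.8% and 26.5%, and the log2 fold changes were -0.17, 0.00 and 0.13, none of them past the threshold.

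**Figure D3:**
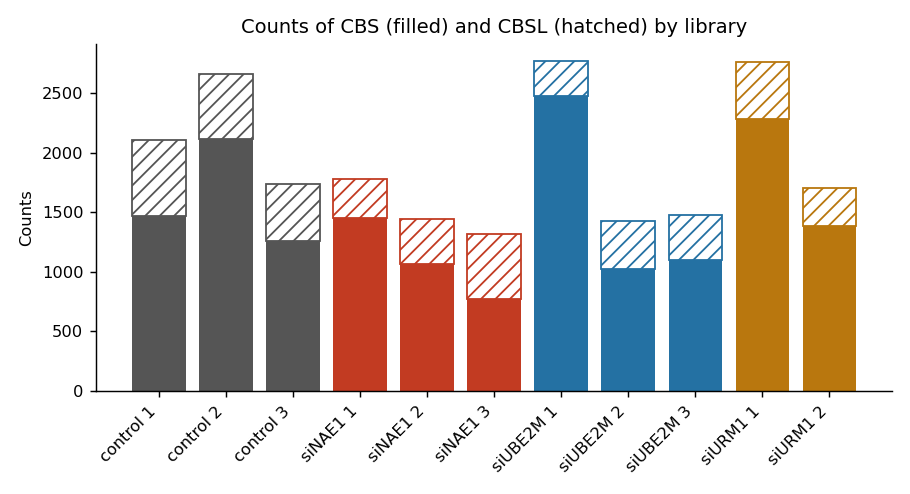
Deposited counts of CBS (filled) and its copy CBSL (hatched), stacked, in the 11 libraries. CBSL lies between 296 and 638 counts and CBS between 775 and 2478, with siUBE2M replicate 1 highest and siNAE1 replicate 3 lowest for CBS.

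ASNS, asparagine synthetase (ENSG00000070669, chr7:97852118-97872542, minus strand), moved in opposite directions. It was at 20.1, 16.8 and 20.7 CPM in control, 7.22, 8.46 and 9.15 in siNAE1, 27.4, 30.4 and 24.5 in siUBE2M, and 13.9 and 14.1 in siURM1. No groups overlapped. The log2 fold change in siNAE1 cells was -1.22 ± 0.13 (adjusted p = 1e-09). The siURM1 value was -0.46 ± 0.13 (adjusted p = 0.0053), while in siUBE2M cells ASNS rose by 0.52 ± 0.11 (adjusted p = 2.6e-04). The call in siNAE1 cells was lost when the fold threshold was part of the test (glmTreat, adjusted p = 0.22) and in limma on log2(FPKM + 1), which gave -0.90.

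The ASNS counts have a limit in the annotation. In GENCODE v44, 49.3% of its exon bases lie under a long noncoding RNA of the same strand, AC079781.5, and 41.6% of the 100-base stretches of its transcripts are shared with it. That RNA held 7 to 41 counts a library, and how reads in the shared bases were assigned is not given in the sources used here. With the 2 genes summed, the log2 fold changes were -1.06, 0.46 and -0.50 in siNAE1, siUBE2M and siURM1 cells, with the same calls.

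PYCR1, pyrroline-5-carboxylate reductase (ENSG00000183010, chr17:81932384-81942412, minus strand), fell in all 3 knockdowns and least in siURM1 cells. It was at 333, 322 and 307 CPM in control, 173, 170 and 189 in siNAE1, 150, 166 and 176 in siUBE2M, and 214 and 221 in siURM1. The siNAE1 and siUBE2M libraries overlapped, and all knockdown libraries lay under the controls. The log2 fold changes were -0.86 ± 0.06, -0.97 ± 0.06 and -0.56 ± 0.07 (adjusted p = 6e-13, 8e-14 and 1.1e-07). Without siUBE2M replicate 3 the second value was -1.02 and was called. MYADML2 covers 14.1% of its exon bases on the same strand.

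Per gene length, the order of the genes shifted with the knockdowns. In control cells the authors' FPKM (fragments scaled to gene length and library total) was 321 ± 20.6 for PSAT1, 110 ± 4.14 for PYCR1, 108 ± 4.62 for PHGDH, 98.8 ± 3.75 for MTHFD2 and 94.6 ± 4.02 for SHMT2 (SD, n = 3). CTH followed at 77.8 ± 0.989, PSPH at 34.2 ± 0.613, ALDH1L2 at 25.1 ± 1.98, CBS at 14.5 ± 3.99 and ASNS at 4.27 ± 0.456. The neighbours PYCR1 and PHGDH, and MTHFD2 and SHMT2, overlapped, and the other neighbours did not. PSAT1 was highest and ASNS lowest in every group. In siNAE1 cells SHMT2 came second at 100 ± 5.80 FPKM. ALDH1L2 ranked behind CBS in all 3 knockdowns, at 3.02 ± 0.352 FPKM without overlap in siNAE1 cells and with overlapping libraries in the other knockdowns. CTH ranked sixth or seventh in every group although its FPKM fell to between 16.5 and 20.0 in the knockdown means. The values of ASNS and CBS carry the limits of shared sequence given with each gene.

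**Figure D4:**
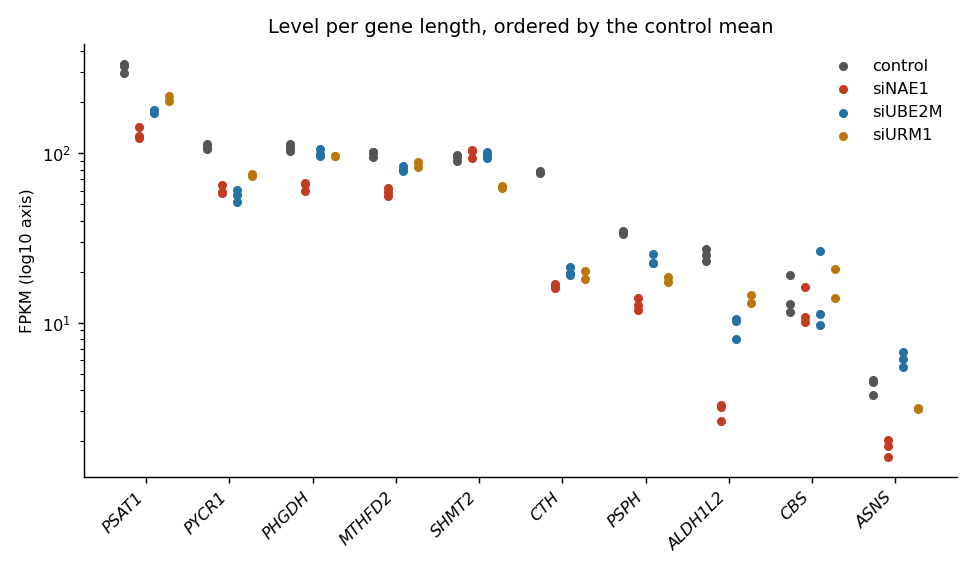
FPKM of the 10 genes on a log10 axis in every library, with genes ordered by their control mean. Colours are the 4 groups and each point is a library. PSAT1 lies highest in each group, from 123 to 338 FPKM, and ASNS lowest, from 1.60 to 6.70 FPKM.

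The knockdowns were compared directly. Between siNAE1 and siUBE2M, 2 genes were called, both lower in siNAE1 (4.99% of all genes), and 7 were lower by the adjusted p (21.6%). They were ASNS (log2 difference -1.73 ± 0.12, adjusted p = 8.1e-13) and ALDH1L2 (-1.65 ± 0.10, adjusted p = 6.6e-15). SHMT2, CBS and PYCR1 did not pass, with 95% intervals of the difference from -0.07 to 0.16, -0.79 to 0.10 and -0.02 to 0.24. CBS passed without the filter on low counts (-0.34, adjusted p = 2.1e-05) and without siNAE1 replicate 1, siUBE2M replicate 2 or siUBE2M replicate 3 (0.049, 0.017 and 0.039), and PYCR1 without siUBE2M replicate 3 (0.046).

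Between siNAE1 and siURM1, ALDH1L2 was called lower (-2.17 ± 0.10, adjusted p = 6.1e-17), as were 3.41% of all genes. By the adjusted p alone 7 members were lower in siNAE1 (19.1% of all genes), CTH being at the threshold and not among them. CBS was not among them either (adjusted p = 0.11) but passed without the filter on low counts (3e-08), in a fit of the 2 groups alone (9e-04) and without siNAE1 replicate 1, siUBE2M replicate 1 or siURM1 replicate 2 (0.027, 0.011 and 0.042). SHMT2 was higher by 0.68 ± 0.07 (adjusted p = 1e-09, with 19.5% of all genes higher). Between siUBE2M and siURM1 no member was called by edgeR or DESeq2, against 5.41% of all genes in either direction, while 3 were lower (18.3%) and 3 higher (16.7%) in siUBE2M by the adjusted p. The lower ones were PSAT1 (-0.25, adjusted p = 0.084 without siURM1 replicate 2), ALDH1L2 (-0.52) and PYCR1 (-0.41), and the higher ones ASNS (0.97), PSPH (0.39) and SHMT2 (0.63). PHGDH, MTHFD2, CTH and CBS did not pass, and their intervals lay within -0.63 and 0.35, though the CBS difference was -0.73 without siUBE2M replicate 1 (adjusted p = 0.0012).

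The mRNA of ATF4 (ENSG00000128272) was measured beside the enzyme genes. It was at 852 ± 40.4 CPM in control (SD, n = 3), 1354 ± 57.0 in siNAE1 (n = 3), 1339 ± 76.2 in siUBE2M (n = 3) and 950 ± 33.6 in siURM1 (n = 2). It rose in siNAE1 and siUBE2M cells (log2 fold change 0.67 and 0.65) and lay at the threshold without passing in siURM1 cells (0.16, adjusted p = 0.051). The siURM1 libraries, at 926 and 974 CPM, lay above every control library (848, 894 and 813). ATF4 protein was not analysed here.

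Relatives with the same or a neighbouring reaction were compared as log2 ratios of CPM, control against all 8 knockdown libraries (two-sided exact permutation test over all assignments of 3 control labels to 11 libraries, adjusted over 6 pairs). PYCR1 fell relative to PYCR3, which carries out the same reaction, by 0.88 (p = 0.0061, exact; adjusted p = 0.018), and the ratio separated every knockdown library from every control library. PYCR3 was at 29.3 ± 2.47 CPM in control and 33.0 ± 4.68, 28.3 ± 2.16 and 30.3 ± 1.16 in the knockdowns. The p given is the smallest this design can reach. PYCR1 itself lay under control in every knockdown library while PYCR3 overlapped control, so the ratio adds little to the PYCR1 values. The test also pools knockdowns of 3 different targets.

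SHMT2 against its cytosolic relative SHMT1 gave a mean difference of -0.31 (p = 0.12, exact). The group means of that ratio were 2.89, 2.87, 2.73 and 1.91 in control, siNAE1, siUBE2M and siURM1, and SHMT1 itself was higher in siURM1 cells (81.7 ± 5.73 CPM against 62.3 ± 3.92, log2 fold change 0.39, adjusted p = 1.8e-04). MTHFD2 against MTHFD1, MTHFD1L and MTHFD2L gave 0.14, 0.04 and -0.76 (exact p = 0.52, 0.75 and 0.061), with knockdowns on both sides of control for the first 2. The group means of the ratio to MTHFD2L were 4.87, 3.41, 4.37 and 4.75 in control, siNAE1, siUBE2M and siURM1, and the siURM1 libraries overlapped control. MTHFD2L, the other mitochondrial form, rose in siNAE1 cells from 16.6 ± 1.04 to 27.5 ± 0.917 CPM (adjusted p = 7.5e-07) while MTHFD2 fell. ALDH1L1, the cytosolic counterpart of ALDH1L2, had too few counts for a ratio (8 to 52 a library) and was itself called lower in siNAE1 and siURM1 cells (log2 fold change -1.93 and -1.34, adjusted p = 7.1e-05 and 0.0068). In siUBE2M cells it fell by less than the fold threshold (-0.97, adjusted p = 0.019).

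**Figure D5:**
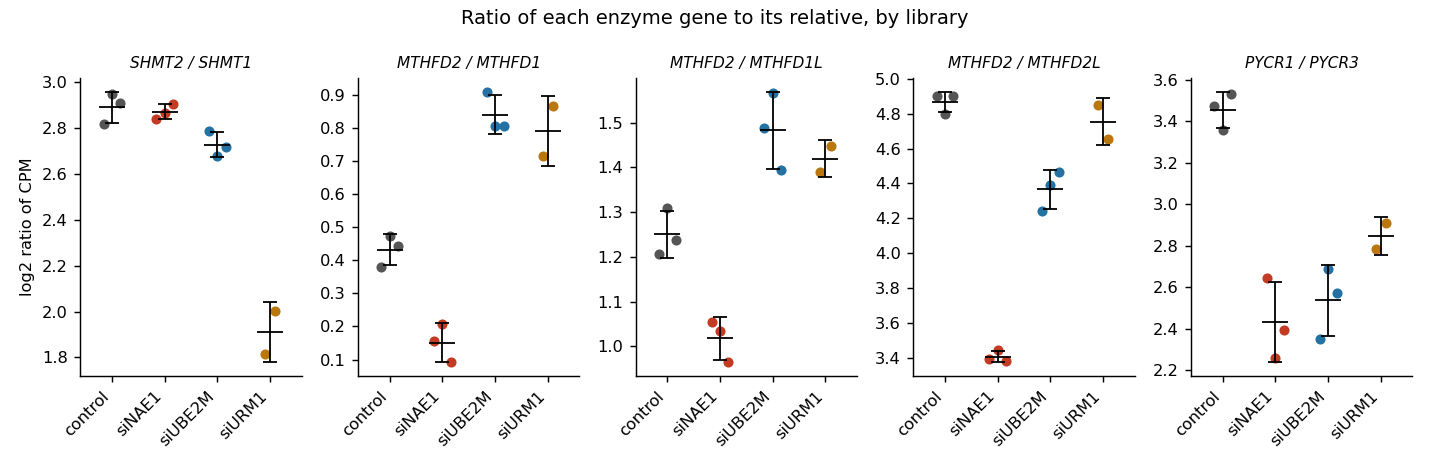
Log2 ratio of CPM between an enzyme gene and its relative, by group. Points are libraries, bars the mean and SD, and the vertical axes differ between panels and do not start at 0. The PYCR1 panel has every knockdown library below control, and the SHMT2 panel is lowest in siURM1, with means of 2.89 in control and 1.91 in siURM1.

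The other genes of the 4 pathways were counted in the same way. These lists too were chosen with earlier results of these data known, so the counts are a description. Of 18 other genes tested in serine, glycine and one-carbon metabolism, 4 were called lower and 0 higher in siNAE1 cells, 0 and 0 in siUBE2M cells, and 2 and 1 in siURM1 cells. Over all genes, 8.61%, 3.89% and 4.73% were called lower and 5.3%, 3.22% and 2.89% higher in the 3 knockdowns. By the adjusted p alone 8, 6 and 7 were lower and 2, 2 and 4 higher, where 27.1%, 22.6% and 20.8% of all genes were lower and 27.6%, 22.7% and 20.8% higher. Their median log2 fold changes were 0.05, -0.13 and -0.27. SRR, serine racemase, fell from 28.3 ± 0.512 to 11.7 ± 0.952 CPM in siNAE1 cells (log2 fold change -1.27, adjusted p = 1e-11). Under the fold threshold it also fell in siUBE2M and siURM1 cells (-0.52 and -0.55, adjusted p = 7.7e-05 and 1.6e-04). DMGDH, a mitochondrial dimethylglycine dehydrogenase, held 74, 48 and 54 counts in control, 7, 2 and 2 in siNAE1, and 7 and 15 in siURM1, and was called lower in both. SARDH, which demethylates sarcosine, held 17, 13 and 12 counts in control and 0, 0 and 3 in siNAE1, where it was called lower. It passed the filter on low counts only through the control libraries, being at most 0.59 CPM elsewhere. This call, among the 4 lower in siNAE1 cells, is therefore not independent of the filter. GNMT, glycine N-methyltransferase, was the gene called higher, from 0.814 ± 0.562 to 2.01 ± 0.101 CPM in siURM1 cells (adjusted p = 0.033).

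Among 16 other genes tested of aspartate, asparagine and glutamate metabolism, 3, 3 and 2 were called lower in siNAE1, siUBE2M and siURM1 cells (8.61%, 3.89% and 4.73% of all genes) and 0 higher (5.3%, 3.22% and 2.89%). By the adjusted p alone 8, 7 and 6 were lower (27.1%, 22.6% and 20.8% of all genes) and 5, 3 and 5 higher (27.6%, 22.7% and 20.8%). GPT, alanine aminotransferase, was lower in all 3, at 15.1 ± 2.71 CPM in control and 4.24 ± 0.464, 4.79 ± 1.06 and 4.51 ± 0.286 in the knockdowns (log2 fold change -1.84, -1.66 and -1.75). ASS1, argininosuccinate synthase, fell from 231 ± 10.2 CPM to 99.5 ± 7.46 in siNAE1 and 98.5 ± 6.84 in siUBE2M (-1.22 and -1.23). In siURM1 cells it fell to 137 ± 1.91 CPM, under the fold threshold (-0.75, adjusted p = 1.1e-09). BCAT1, which transaminates branched-chain amino acids, was called lower in siNAE1 cells (-1.24, adjusted p = 5.9e-15), and ASL, argininosuccinate lyase, in siUBE2M and siURM1 cells (-1.40 and -1.30). Under the fold threshold BCAT1 also fell in siUBE2M and siURM1 cells (-0.64 and -0.90, adjusted p = 1.8e-08 and 3e-10). ASL did so in siNAE1 cells (-0.80, adjusted p = 1.6e-04).

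Of 19 other genes tested in the methionine cycle and transsulfuration, 1 was called lower and 1 higher in siNAE1 cells, 0 and 1 in siUBE2M cells, and 0 and 0 in siURM1 cells, beside the shares of all genes given above. By the adjusted p alone 9, 5 and 5 were lower, against 27.1%, 22.6% and 20.8% of all genes, and 7, 7 and 7 higher, against 27.6%, 22.7% and 20.8%. MTR, methionine synthase, fell from 227 ± 11.8 to 112 ± 7.86 CPM in siNAE1 cells (-1.01, adjusted p = 6e-13). Under the fold threshold it also fell in siUBE2M and siURM1 cells (-0.44 and -0.24, adjusted p = 9.5e-06 and 0.018). SQOR, which oxidises sulfide, was called higher in siNAE1 cells at 14, 21 and 13 counts against 4, 9 and 10 in control. MAT1A was called higher in siUBE2M cells at 11, 14 and 15 counts against 6, 1 and 0. It passed the filter on low counts only through the siUBE2M libraries, being at most 0.623 CPM elsewhere. This call, the 1 higher in siUBE2M cells, is therefore not independent of the filter. Of 9 other proline and ornithine genes tested, 2 were called higher in siNAE1 cells (5.3% of all genes) and none in the other comparisons with control. By the adjusted p alone 0, 1 and 0 were lower and 6, 5 and 4 higher, where 27.6%, 22.7% and 20.8% of all genes were higher. In siNAE1 cells OAT, ornithine aminotransferase, rose from 117 ± 3.99 to 255 ± 14.4 CPM (1.12, adjusted p = 1.1e-15) and ALDH4A1, which degrades proline, from 9.24 ± 0.842 to 18.8 ± 2.38 CPM (1.02, adjusted p = 4.1e-08). Under the fold threshold OAT also rose in siURM1 cells, to 210 ± 18.1 CPM (0.85, adjusted p = 2.2e-11). ALDH4A1 did so in siUBE2M cells (0.34, adjusted p = 0.036).

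The genes whose pattern was most like the mean of the 10 members were sought among 10458 others that averaged 10 CPM or more, by Pearson correlation of log2 CPM over the 11 libraries. They were KCTD15 (r = 0.985), WAC-AS1 (0.985), IFT46 (0.984), GABPB2 (0.984) and FOXC1 (0.983). KCTD15 was at 178 ± 5.10 CPM in control and 79.2 ± 2.34, 117 ± 1.61 and 115 ± 4.46 in siNAE1, siUBE2M and siURM1. The points fall into the 4 groups, so these values describe the group means. Among the members, likeness to the mean of the others was highest for PSPH (0.976) and lowest for CBS (0.131) and SHMT2 (-0.172), with PYCR1 at 0.666 and ASNS at 0.615.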

How the data were processed

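Messenger RNA of 11 HEK293T libraries was sequenced, and groups were taken from the sample labels. The deposited counts are raw whole numbers, obtained by the authors through fastp trimming, HISAT2 2.0.5 alignment to GRCh38 and featureCounts 1.5.0-p3. FPKM values deposited beside them scale those counts to gene length and library size. Annotation version and strand setting are not given in the sources used here.

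The tests were run in edgeR 4.0.16 under R 4.3.3. After filterByExpr and TMM scaling, a single quasi-likelihood fit of the 4 groups covered 18368 genes with Benjamini-Hochberg adjustment. A call needed an adjusted p under 0.05 and a log2 fold change of 1 or more in size. CPM values are TMM-scaled. Intervals of differences are 95% and unadjusted. Paralog ratios needed at least 10 counts in every library, a limit set after seeing the counts. Of the 6 pairs tested and adjusted together, 1 is not reported here. On simulated counts with 200 changed genes of log2 fold change 2 in size (siNAE1 against control, 18368 genes), 194 were recovered with 6 false calls. Changes near the fold threshold of 1 were not simulated, so the recovery does not apply to them. Other tables and the plots came from Python 3.11.15 (pandas 2.3.3, matplotlib 3.10.9).

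The members and gene lists were chosen with earlier results of these data known. Named genes are the 10 members, their paralogs and near-identical copies, the siRNA targets, ATF4, the called genes of 4 pathway lists (at most 6 a list) and the 5 genes most like the members. AC079781.5, MYADML2, U2AF1 and U2AF1L5 were named after annotation and counts were seen. The alternatives were DESeq2 1.42.0, RLE scaling, no filter, a minimum of 10 counts in every library, fits of 2 groups, a replicate block, glmTreat, calls with no fold threshold, limma 3.58.1 on log2(FPKM + 1) or log2(FPKM + 0.1), leaving out each library, and summing CBS with CBSL and PSPH with PSPHP1. Summing ASNS with AC079781.5 was chosen after seeing the data.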

Additional observations from a re-analysis of the deposited data

Results flagged for a closer look

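Differences between knockdowns, tested directly in the same edgeR fit, stood out for 2 genes. ASNS was lower in siNAE1 than in siUBE2M cells, with a log2 difference of -1.73 (adjusted p = 8.1e-13), and it was higher in siUBE2M than in siURM1 cells by 0.97 (adjusted p = 4.7e-07), with siUBE2M above control and the other knockdowns below it in every library. ALDH1L2 differed by -1.65 between siNAE1 and siUBE2M cells and by -2.17 between siNAE1 and siURM1 cells, although it fell in all 3. The siRNA amounts and the depth of knockdown differ between these groups and cannot be told apart from the targets.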

How the results depend on the processing

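The calls of the 10 genes against control were the same under RLE scaling, no filter, at least 10 counts in every library, DESeq2, 2 groups per fit, log2(FPKM + 0.1) and the summed copies. ASNS in siNAE1 cells lost its call under glmTreat (-1.22) and limma on log2(FPKM + 1), with or without a filter of 1 FPKM (-0.90). The replicate numbers did not pair the libraries (correlation of same-numbered deviations -0.0657 to 0.0787). With the replicate number as a block the members called stayed at 5, 2, 1, 2, 1 and 0 over the 6 comparisons, and 2534 genes were called in siNAE1 against control. By the adjusted p alone the block lost PHGDH in siURM1 cells (0.061).

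Counts are given in the order siNAE1, siUBE2M and siURM1 against control, siNAE1 against siUBE2M, siNAE1 against siURM1 and siUBE2M against siURM1. Without the fold threshold the members called were 8, 7, 9, 7, 8 and 6, and all genes 10047, 8317, 7641, 8134, 7091 and 6427. In place of 2555, 1306, 1399, 1440, 1241 and 993, the genes called were 1484, 686, 823, 780, 740 and 603 with at least 10 counts in every library, 738, 170, 214, 179, 168 and 136 under glmTreat, 713, 294, 345, 266, 292 and 222 in limma on log2(FPKM + 1), and 788, 342, 400, 319, 345 and 272 with its FPKM filter. With 1 library left out, PYCR1 in siUBE2M cells was called without siUBE2M replicate 3 (-1.02), and the members called between siUBE2M and siURM1 were 0 to 1 (ASNS at 1.05 without siUBE2M replicate 3). The PYCR1 ratio to PYCR3 ranged from -0.93 to -0.84 and missed the threshold whenever a control library was left out, since 2 control libraries allow fewer assignments. The MTHFD2 ratio to MTHFD2L ranged from -0.87 to -0.66 and passed without siURM1 replicate 1.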

Other observations

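U2AF1 and U2AF1L5, another gene of chromosome 21 with a listed copy, also varied between libraries. U2AF1 had 167 to 1031 counts and U2AF1L5 132 to 954, and U2AF1 held from 17.4% to 86.5% of the pair.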
